A study of Mus musculus with 8 samples.

Results

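The collagen chain genes of the mouse liver were described across 8 RNA-seq libraries. Every gene whose symbol is Col, a number, the letter a and a number was taken, which gave 40 of the 24674 lines that carry a symbol in the deposited expression table. By the structure of the collagen they build, 10 of the 40 were fibrillar, 6 belonged to basement membrane type IV and 24 to other types. The choice of members used symbols alone and no measured value, though earlier results of these data were known.

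The livers came from 8 female mice, 4 in each of 2 groups, and every animal was wild type in genotype. The WT group had only wild-type forebears. The F2_outcross group had a mother's mother that was Khdc3-null, so the null allele stood in the pedigree and not in the animals sampled. Khdc3 encodes a protein of the oocyte and early embryo, and the comparison asks whether the liver transcriptome differs with that ancestry. No treatment, age, strain, litter or batch is given in the labels. Since nothing ties the animals to litters or dams, all p-values reflect only how far these samples spread.

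Collagen chains are made in the endoplasmic reticulum, where prolines and lysines are hydroxylated and the chains wind into a helical trimer that the chaperone HSP47 (Serpinh1) holds until export. Fibrillar trimers of types I, III and V lose their propeptides outside the cell and assemble into cross-linked fibres, which accumulate in the scarred liver. Type IV trimers form a sheet-like network with laminins and nidogens. In healthy liver, stellate cells and portal fibroblasts are known sources of fibrillar chains, and hepatocytes are a known source of type XVIII.

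Library totals ran from 28028650 to 35843972 reads assigned to genes, and 1 read was worth 0.779 to 1.04 of the size-factor-normalized reads that are the unit of level used here. The collagen genes together took 0.0999% to 0.127% of the reads of a library. The labels call the tissue liver and the cell type hepatocyte. Hepatocyte markers summed to 3331650 to 4755502 normalized reads, and 0 of 7 tested passed the limma test between groups, where 2.66% of all genes tested did. Their log2 fold changes (F2_outcross minus WT) ran from -0.52 to 0.56. Of the 7, 2 had an unadjusted limma p under 0.05, where 21.1% of all genes tested did. Summed markers of stellate cells (9205 to 10856 normalized reads), sinusoidal endothelium (15408 to 18031) and Kupffer cells (11832 to 30838) were nonetheless read in every library, and no listed marker in the table was at 0 throughout. In such bulk RNA, fewer cells of a type and less RNA per cell cannot be told apart.

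Of the 40 genes, 26 reached 10 normalized reads in at least 4 libraries and were tested: 8 of 10 fibrillar, 5 of 6 type IV and 13 of 24 others. In 23 of the 26 all 8 libraries were at that level. The exceptions were Col6a5, Col8a2 and Col17a1. Just inside the filter, Col8a2 (a chain of a short network collagen of vessels and cornea) had 14.0, 8.08, 13.6 and 1.56 normalized reads in WT 1 to 4 and 10.5, 6.71, 9.54 and 14.6 in F2_outcross 1 to 4. Just outside it lay Col26a1, with 7.01, 6.06, 4.18 and 7.80 in WT and 7.02, 61.4, 22.5 and 13.6 in F2_outcross. Col26a1 thus reached the level in F2_outcross libraries alone, and F2_outcross 2 was far above the rest.

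The other 13 untested genes were low. Col6a6, a type VI chain, ran from 3.47 to 14.0 normalized reads, and Col7a1, which forms the anchoring fibrils of skin, from 2.09 to 30.3. Col9a3 ran from 0 to 12.1, with 1 library, F2_outcross 3, at the level of the filter. Col4a6, Col8a1, Col23a1, Col24a1 and Col25a1 stayed under 10 in all libraries. Col9a2, Col22a1, Col28a1 and Col6a4 had at most 3 reads in any library, and Col2a1, the cartilage fibril chain, had 0 reads in all 8. A count of 0 allows up to 3 reads per library, or 2.34 to 3.13 normalized reads, by counting error alone. No line carried the symbols Col9a1, Col10a1, Col11a1 or Col19a1, so these genes were not analysed here.

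**Figure D1:**
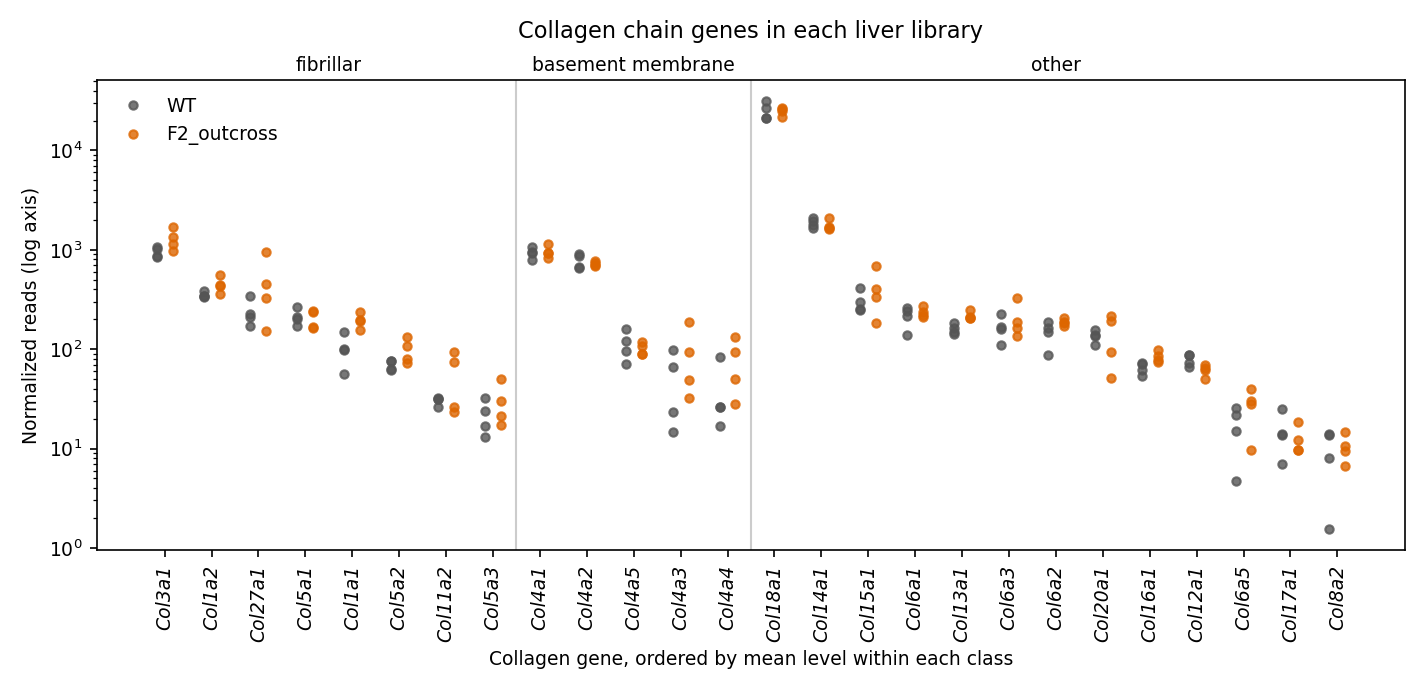
Normalized reads (log axis) of the 26 tested collagen genes, ordered by level within the fibrillar, basement membrane and other classes; each point is 1 library, grey for WT and orange for F2_outcross. Col18a1 stands far above the rest in every library, and the groups of most genes overlap.

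Levels between genes were compared per kb of the principal transcript. Col18a1, which encodes the type XVIII chain whose released end is endostatin, had 5222 normalized reads per kb averaged over all 8 libraries. It was followed by Col14a1 (a fibril-associated chain) with 320, Col3a1 with 201, Col4a1 with 143, Col4a2 with 116 and Col1a2 with 74.6. Col1a1 came 13th, with 24.9 per kb. Col18a1 made up 68.5% (F2_outcross 3) to 81.6% (WT 2) of summed collagen reads. In each of the 8 libraries Col18a1 was above Col14a1, Col14a1 above Col3a1 and Col3a1 above Col4a1. Col4a1 and Col4a2 were close, with a per-kb ratio of 1.04 to 1.59 over the libraries.

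No collagen gene passed the test between groups. The comparison used limma across all 14390 genes that passed the filter, on log2(normalized reads + 1) with Benjamini-Hochberg adjustment at 0.05. Of the 26 tested collagen genes 0 were higher and 0 lower, where 2.66% of all genes tested were called (1.6% higher and 1.06% lower in F2_outcross). At an unadjusted p under 0.05 there were 5 collagen genes (19.2%), against 21.1% of all genes. A voom fit on the whole reads called 0 (2.43% of all genes) and also gave 5 at an unadjusted p under 0.05.

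The point estimates leaned upward without passing. Of the 26 log2 fold changes (F2_outcross minus WT), 18 were positive (69.2%, against 48.9% of all genes tested) and 8 negative. Their median was 0.35 beside -0.01 over all genes tested. The median was 0.44 for the 8 fibrillar genes (7 positive), 0.05 for the 5 type IV genes (3 positive) and 0.27 for the 13 others (8 positive). Groups did not overlap in 3 of the 26 (11.5%; Col1a1, Col13a1 and Col16a1, each higher in F2_outcross), where 12.0% of all genes had groups apart in either direction and 6.5% had F2_outcross higher. The shares of collagen genes at an unadjusted p under 0.05 (19.2%) and with groups apart in either direction (11.5%) were near those of all genes. Since all 3 genes with groups apart were higher in F2_outcross, 11.5% also stands against the 6.5% in that direction.

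**Figure D2:**
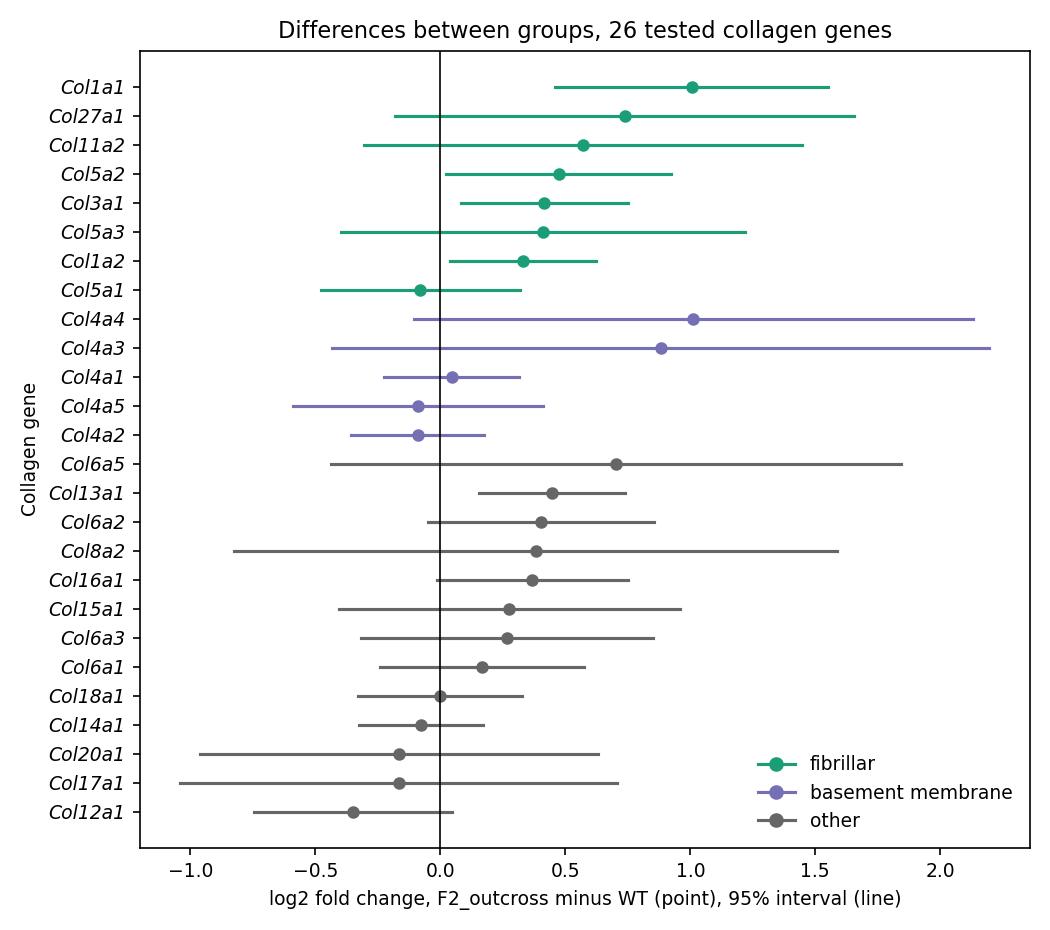
log2 fold change (F2_outcross minus WT, on log2(normalized reads + 1)) of the 26 tested collagen genes by class; points are limma estimates and lines their 95% intervals, from 4 libraries a group. Of the fibrillar genes 7 of 8 lie to the right of 0, and the intervals of Col1a1, Col3a1, Col1a2, Col5a2 and Col13a1 leave out 0 before adjustment.

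Among the fibrillar genes, those of types I and III came first. Col1a1, the alpha1 chain of type I (chromosome 11, 94936224 to 94953042), had 149, 97.0, 101 and 56.2 normalized reads in WT 1 to 4 and 191, 155, 237 and 195 in F2_outcross 1 to 4. All F2_outcross libraries lay above all WT libraries, with the smallest gap between WT 1 and F2_outcross 2. The means were 101 ± 37.9 and 194 ± 33.3 (SD, n = 4 a group), a log2 fold change of 1.01 ± 0.25 (SE; 95% interval 1.38- to 2.93-fold), and the limma adjusted p was 0.0555. Over the 17 alternative settings the adjusted p ran from 0.0202 to 0.124, and Col1a1 passed in 3, library weights (11.9% of all genes called), quantile normalization (2.9%) and leaving out WT 1 (0.91%).

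Col1a2 encodes the alpha2 chain of type I (chromosome 6, 4504814 to 4541544). It had 336, 343, 383 and 343 normalized reads in WT and 442, 357, 552 and 435 in F2_outcross. F2_outcross 2 fell within the WT range and the other 3 lay above it. Its log2 fold change was 0.33 ± 0.13 (limma adjusted p = 0.189).

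Col3a1, the single chain of type III (chromosome 1, 45311538 to 45349706), had 1019, 864, 1071 and 853 normalized reads in WT and 1333, 984, 1683 and 1156 in F2_outcross. Again F2_outcross 2 lay among the WT libraries and F2_outcross 3 was highest. The log2 fold change was 0.42 ± 0.15 (limma adjusted p = 0.155). The Col3a1 exons share 141 bases with the same-strand gene model Gm47302, so some of its reads may have been assigned in a way that cannot be traced. Col20a1 overlaps a same-strand gene model over a shorter stretch (79 bases), with the same limit. Col5a1, Col4a2 and Col15a1 overlap opposite-strand gene models over short stretches, where the limit depends on how the counting treated strand, which is not stated.

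The windows around the annotated starts of Col1a2 and Col3a1 are printed because these were the most abundant fibrillar chains per kb. Each runs 5′ to 3′ from 250 bases before to 50 bases after the start, on the gene's strand, from RefSeq (GRCm38.p6). The RefSeq start used for Col1a2 lies downstream of the gene start given above, which falls outside the window. Capitals mark matches, on either strand, to the CCAAT box, to the GC box letters GGGCGG and to the TATA box letters TATAAA, none of which overlaps another in these windows.
Col1a2 (chr6:4505368-4505667, plus strand): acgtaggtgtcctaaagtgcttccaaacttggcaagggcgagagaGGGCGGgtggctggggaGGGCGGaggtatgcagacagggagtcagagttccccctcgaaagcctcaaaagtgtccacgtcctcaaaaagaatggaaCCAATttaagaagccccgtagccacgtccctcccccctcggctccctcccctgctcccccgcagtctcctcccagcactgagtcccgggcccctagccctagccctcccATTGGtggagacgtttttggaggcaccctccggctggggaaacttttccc
Col3a1 (chr1:45311288-45311587, plus strand): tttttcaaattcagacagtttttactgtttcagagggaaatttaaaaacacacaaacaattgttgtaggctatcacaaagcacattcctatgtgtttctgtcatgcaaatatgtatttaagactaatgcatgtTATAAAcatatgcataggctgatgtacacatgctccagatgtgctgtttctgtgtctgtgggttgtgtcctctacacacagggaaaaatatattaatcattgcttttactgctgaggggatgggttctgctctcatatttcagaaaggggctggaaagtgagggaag
The Col1a2 window held 2 matches to the CCAAT box and 2 to the GC box, and that of Col3a1 held 1 to the TATA box. Of all 32851 windows of the same length, 37.4% held the CCAAT box, 35.7% the GC box letters and 13.6% the TATA box letters. A match is only a run of letters here, not a site. Col1a1 had no window among those used.

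**Figure D3:**
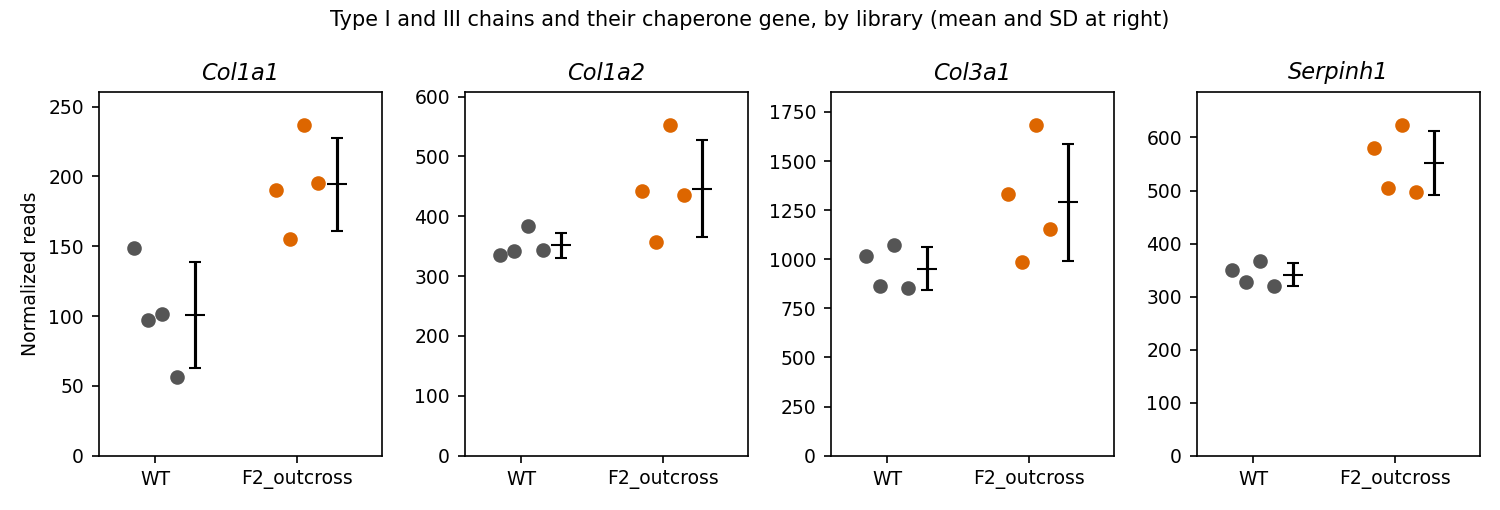
Normalized reads in each library of Col1a1, Col1a2, Col3a1 and Serpinh1, with the mean and SD (n = 4) of each group to the right of its points; axes start at 0. Groups are apart for Col1a1 and Serpinh1 and overlap for Col1a2 and Col3a1, and F2_outcross 3 is the highest library in all 4 panels.

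Of the other fibrillar genes, Col5a2, an alpha2 chain of type V that co-assembles with type I (chromosome 1, 45374321 to 45503282), had 75.5, 61.6, 75.2 and 63.2 normalized reads in WT and 108, 79.6, 133 and 73.1 in F2_outcross. Only F2_outcross 4 fell within the WT range, and the limma adjusted p was 0.215 (log2 fold change 0.47 ± 0.21). Its partner Col5a1, the other main type V chain, had 169.8, 269, 212 and 200.5 in WT and 243, 167, 236 and 162 in F2_outcross. Those groups overlapped, with a log2 fold change of -0.08 ± 0.18 (limma adjusted p = 0.840).

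Col27a1, a fibrillar chain known mainly from cartilage, had 212, 172, 344 and 225 normalized reads in WT and 450.4, 328, 959.9 and 154 in F2_outcross. F2_outcross held both the highest and the lowest library. The log2 fold change of 0.74 ± 0.42 (limma adjusted p = 0.342) became 0.30 without F2_outcross 3 and 1.17 without F2_outcross 4.

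Col11a2, also a chain of cartilage fibrils, had 26.5, 31.3, 32.4 and 31.2 in WT and 73.7, 25.9, 93.6 and 23.4 in F2_outcross. F2_outcross 1 and 3 stood well above the other 6 libraries, and its log2 fold change was 0.57 ± 0.40 (limma adjusted p = 0.449). Col5a3, a minor type V chain, ran from 13.1 to 32.0 in WT and from 17.3 to 50.3 in F2_outcross (log2 fold change 0.41 ± 0.37, limma adjusted p = 0.570). Without F2_outcross 3 the estimates of Col11a2 and Col5a3 were 0.23 and 0.13.

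Across the class 1 library led. F2_outcross 3 had the highest level of 7 of the 8 fibrillar genes, and of 13 of all 26 collagen genes. The matching share over all genes tested is not given here, so this order may not be particular to collagen. Summed fibrillar reads were 2015, 1858, 2241 and 1808 in WT and 2879, 2117, 3952 and 2220 in F2_outcross, so F2_outcross 2 and 4 lay within the WT range. The fibrillar median of 0.44 was 0.25 without F2_outcross 3, and Col1a1 was then at a log2 fold change of 0.91 (limma adjusted p = 0.108).

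Markers of fibrogenic cells were read beside these genes. Since 2.66% of all genes tested were called, 0 called in lists this short says little. Of 10 stellate cell markers tested 0 were called, and their summed level was 9228 to 10856 normalized reads in WT and 9205 to 10742 in F2_outcross (median log2 fold change -0.11). Of 5 tested myofibroblast markers 0 were called (342 to 674 against 355 to 467, median 0.02). Of 10 portal fibroblast and mesothelial markers 0 were called, with sums of 1205 to 2253 and 1931 to 3416 and a median of 0.46. The lowest of these sums, WT 4, belonged to the library that was also lowest for Col1a1, and the highest, F2_outcross 4, did not lead any fibrillar gene. The adipocyte markers were low, with 1 of 4 tested and 0 called, and their sum ran from 10.1 to 25.3 in WT and from 35.5 to 134 in F2_outcross, highest in F2_outcross 3. The tested marker was Cidec (log2 fold change 1.52). Adipoq, Plin1 and Lep were too low to test, so the list rests on Cidec alone. The part of any of these cells in the collagen levels was not tested.

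Of the basement membrane class, the most abundant chains showed no difference between groups beyond their spread. Col4a1 and Col4a2 encode the alpha1 and alpha2 chains of the widespread type IV trimer and lie head to head on chromosome 8 (11198423 to 11312826 and 11312805 to 11449287). Col4a1 had 946, 919.5, 1058 and 795 normalized reads in WT and 1148, 830.4, 939 and 927 in F2_outcross. The groups overlapped, and the 95% interval of the fold was 0.856 to 1.24 (log2 fold change 0.05 ± 0.12, limma adjusted p = 0.868).

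Col4a2 had 661, 861, 908 and 678 normalized reads in WT and 702, 763, 688 and 739 in F2_outcross. All F2_outcross libraries fell inside the WT range. Its interval was 0.781- to 1.13-fold (log2 fold change -0.09 ± 0.12, limma adjusted p = 0.711).

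The start windows of this pair are printed because they show the shared start region directly. The annotated first exons overlap by 22 bases on opposite strands, and capitals mark the 78 bases that both windows hold, each read on its own strand (RefSeq, GRCm38.p6).
Col4a1 (chr8:11312777-11313076, minus strand): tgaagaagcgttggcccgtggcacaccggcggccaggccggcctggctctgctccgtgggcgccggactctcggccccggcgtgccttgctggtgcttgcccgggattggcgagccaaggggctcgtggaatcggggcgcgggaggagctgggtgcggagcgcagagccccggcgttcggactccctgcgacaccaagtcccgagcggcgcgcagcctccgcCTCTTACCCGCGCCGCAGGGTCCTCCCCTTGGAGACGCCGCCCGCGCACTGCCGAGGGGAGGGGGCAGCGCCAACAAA
Col4a2 (chr8:11312555-11312854, plus strand): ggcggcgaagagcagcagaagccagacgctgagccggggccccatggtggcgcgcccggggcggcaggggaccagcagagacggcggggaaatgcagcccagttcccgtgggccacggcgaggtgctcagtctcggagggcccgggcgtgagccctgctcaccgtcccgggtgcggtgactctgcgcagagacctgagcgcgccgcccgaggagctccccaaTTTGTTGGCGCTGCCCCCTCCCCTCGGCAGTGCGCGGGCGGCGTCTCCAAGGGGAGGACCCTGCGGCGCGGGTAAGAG
The Col4a1 window held 1 match each to the CCAAT and GC boxes, and the Col4a2 window 1 and 3. Over the 8 libraries the levels of the pair had a Pearson r of 0.21.

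A second head-to-head pair, Col4a3 and Col4a4 on chromosome 1, encodes chains of the type IV trimer of kidney glomeruli and was low in liver. Col4a3 (82586921 to 82722059) had 14.8, 23.2, 66.8 and 98.3 normalized reads in WT and 189, 32.6, 92.8 and 48.7 in F2_outcross. Col4a4 (82448423 to 82586849) had 26.5, 26.3, 16.7 and 84.3 in WT and 132, 27.8, 93.6 and 50.7 in F2_outcross. Both genes were highest in F2_outcross 1 and spread several-fold within each group.

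Their log2 fold changes were the least certain of the class, 0.88 ± 0.60 for Col4a3 and 1.01 ± 0.51 for Col4a4 (limma adjusted p = 0.435 and 0.283). The Col4a3 exons share 563 bases with the opposite-strand gene C430014B12Rik. The library kit marks strand, per the labels, but how the counting treated strand is not stated, so these reads may be mixed. Between the annotated starts of the pair lie 71 bases, in capitals in the Col4a4 window (RefSeq, GRCm38.p6), which is printed as the only window of the pair used here.
Col4a4 (chr1:82586800-82587099, minus strand): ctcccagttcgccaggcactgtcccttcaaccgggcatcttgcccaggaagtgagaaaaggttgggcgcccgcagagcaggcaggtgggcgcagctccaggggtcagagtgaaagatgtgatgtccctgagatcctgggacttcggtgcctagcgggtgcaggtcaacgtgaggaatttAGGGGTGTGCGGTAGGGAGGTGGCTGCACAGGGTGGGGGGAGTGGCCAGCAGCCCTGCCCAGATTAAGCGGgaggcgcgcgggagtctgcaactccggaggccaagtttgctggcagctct
No match to any of the 3 motifs lay in this window. Col4a5, the X-linked partner chain, had 95.0, 70.7, 159 and 121 normalized reads in WT and 119, 106, 89.3 and 88.7 in F2_outcross. Its groups overlapped (log2 fold change -0.09 ± 0.23, limma adjusted p = 0.861).

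Endothelial markers, read beside the basement membrane genes, were close in sum. Of 9 sinusoidal markers 0 were called (15408 to 18031 normalized reads in WT, 15736 to 17926 in F2_outcross), and of 5 vascular markers 0 (1485 to 1842 and 1511 to 1723). Cholangiocyte markers were higher in F2_outcross in sum (247 to 344 and 407 to 601). There 1 of 4 tested markers was called, Spp1 (osteopontin), which rose by a log2 fold change of 1.08 ± 0.21 (limma adjusted p = 0.0247). Whether this bears on the type IV chains was not tested.

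Among the other types, Col18a1 (chromosome 10, 77052178 to 77166548) had 21449, 31242, 26675 and 21214 normalized reads in WT and 26792, 25132, 21536 and 26126 in F2_outcross. All F2_outcross libraries lay within the WT range. The estimate was close to 0, with a standard error of 0.15 on the log2 scale and a 95% interval of 0.796- to 1.25-fold (limma adjusted p = 0.999). Its relative Col15a1, of the same multiplexin group, was far lower, with 246, 408, 299 and 257 in WT and 183, 682, 401 and 332 in F2_outcross (log2 fold change 0.28 ± 0.31, limma adjusted p = 0.657).

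Fibril-associated chains did not share a direction. Col14a1, which coats fibrils (chromosome 15, 55307750 to 55520803), had 1665, 1770, 2089 and 1932 normalized reads in WT and 1694, 1621, 2106 and 1655 in F2_outcross, with overlapping groups (log2 fold change -0.08 ± 0.11, limma adjusted p = 0.734). Col16a1, known at the fibril surface and cell contacts, had 71.6, 61.6, 72.0 and 53.8 in WT and 74.6, 85.3, 98.0 and 77.0 in F2_outcross. Its groups did not overlap but lay close, and the log2 fold change was 0.37 ± 0.18 (limma adjusted p = 0.255).

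Col12a1, the fibril-associated chain of tendon and stressed tissue, went the other way, with 88.0, 86.9, 73.1 and 65.5 in WT and 61.5, 69.0, 65.0 and 49.7 in F2_outcross. Of the F2_outcross libraries 3 lay below every WT library, and the log2 fold change of -0.35 ± 0.18 did not pass (limma adjusted p = 0.296). Col20a1 had 135, 110.1, 139 and 157 in WT and 215, 94.0, 194 and 51.7 in F2_outcross. Its F2_outcross libraries enclosed the WT range on both sides (log2 fold change -0.16 ± 0.37, limma adjusted p = 0.836).

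The type VI genes, whose chains form beaded microfibrils around cells, all had positive estimates and 0 of 4 passed. Col6a1 had 239.8, 259.7, 217 and 138 normalized reads in WT and 239, 221, 271 and 209 in F2_outcross, and Col6a2 had 165, 187, 149 and 87.4 in WT and 188, 173, 206 and 185 in F2_outcross. In both WT 4 was far below the other 7 libraries. The log2 fold changes were 0.17 ± 0.19 and 0.40 ± 0.21 (limma adjusted p = 0.651 and 0.293), and they were -0.03 and 0.17 without WT 4.

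Col6a3, the long alpha3 chain of type VI, had 226, 166, 161 and 109 in WT and 164, 137, 330.4 and 186 in F2_outcross (log2 fold change 0.27 ± 0.27, limma adjusted p = 0.612), and its estimate was 0.0098 without F2_outcross 3 and 0.08 without WT 4. Col6a5 was low, with 4.68 to 25.7 in WT and 9.59 to 39.5 in F2_outcross (0.70 ± 0.52, limma adjusted p = 0.476, and 0.22 without WT 4). WT 4 was lowest in 10 of the 26 collagen genes, all 4 type VI genes among them. For this order too the share over all genes tested is not given here.

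Col13a1, a transmembrane collagen of cell contacts (chromosome 10, 61838236 to 61979108), came closest to the threshold after Col1a1. It had 164, 141, 148 and 185 normalized reads in WT and 208, 206, 245 and 209 in F2_outcross. All F2_outcross libraries were above all WT libraries, 3 of them within a narrow band. The log2 fold change was 0.45 ± 0.13 (159.5 ± 19.3 against 217 ± 18.9, SD, n = 4 a group; limma adjusted p = 0.0930), and it passed with library weights alone among the 17 alternatives (adjusted p = 0.0444). Col17a1, the transmembrane chain of epithelial hemidesmosomes, was near the filter, with 7.01 to 25.0 in WT and 9.59 to 18.5 in F2_outcross (-0.17 ± 0.40, limma adjusted p = 0.849), and Col8a2 likewise (0.38 ± 0.55, limma adjusted p = 0.735).

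Pairs of chains were then set against each other across the 8 libraries, 7 in all, of which 5 share a trimer. Col1a1 pairs with Col3a1 only in mixed fibrils, and with Col4a1 in neither. Col6a1 and Col6a2 gave Pearson r = 0.94 and Spearman rho = 0.71 on log2(normalized reads + 1) (exact permutation p = 0.00945 and 0.0576, adjusted over 7 pairs 0.0504 and 0.121). Without WT 4 and F2_outcross 3, the libraries farthest from the Col6a1 median, r was 0.34. Leaving out these extremes also narrows the range of Col6a1, so it cannot tell whether the relation rests on those 2. Over deviations from the group means in all 8 libraries r was 0.97. Col6a1 and Col6a3 gave r = 0.74 and rho = 0.69 (exact permutation p = 0.0557 and 0.0694, adjusted 0.0975 and 0.121). Without WT 4 and F2_outcross 3 their r was 0.16, and over deviations from the group means it was 0.71.

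Col1a1 and Col3a1 gave r = 0.81 and rho = 0.88 (exact permutation p = 0.0144 and 0.00724, adjusted 0.0504 and 0.0507), and r = 0.73 without WT 4 and WT 2. Col1a1 and Col1a2 gave r = 0.72 and rho = 0.76 (exact permutation p = 0.0436 and 0.0368, adjusted 0.0975 and 0.121), and r = 0.72 without the same 2. Since Col1a1 separates the groups, r was also taken over deviations from the group means, and was 0.62 for Col3a1 and 0.36 for Col1a2.

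Of the 7 pairs, those of type IV and type V had the lowest r over all 8 libraries. Col4a1 and Col4a2 gave r = 0.21 and rho = 0.05 (exact permutation p = 0.616 and 0.935, adjusted 0.616 and 0.977), and r = 0.37 without F2_outcross 1 and WT 4. Col5a1 and Col5a2 gave r = 0.25 and rho = 0.02 (exact permutation p = 0.543 and 0.977, adjusted 0.616 and 0.977), and r = 0.65 without WT 2 and F2_outcross 4. Col1a1 and Col4a1 gave r = 0.43 and rho = 0.38 (exact permutation p = 0.289 and 0.360, adjusted 0.405 and 0.504), and r = -0.15 without WT 4 and WT 2. Over deviations from the group means r was 0.27 for Col4a1 with Col4a2, 0.49 for Col5a1 with Col5a2 and 0.52 for Col1a1 with Col4a1. The latter 2 were above the 0.36 of Col1a1 with Col1a2, so the order of the pairs depended on how r was taken. No pair passed after adjustment over the 7, which were chosen with earlier results of these data known. Col4a3 with Col4a4 was added after their values were seen and is given with no p: r = 0.76, rho = 0.71 and r = 0.62 without WT 1 and F2_outcross 1.

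**Figure D4:**
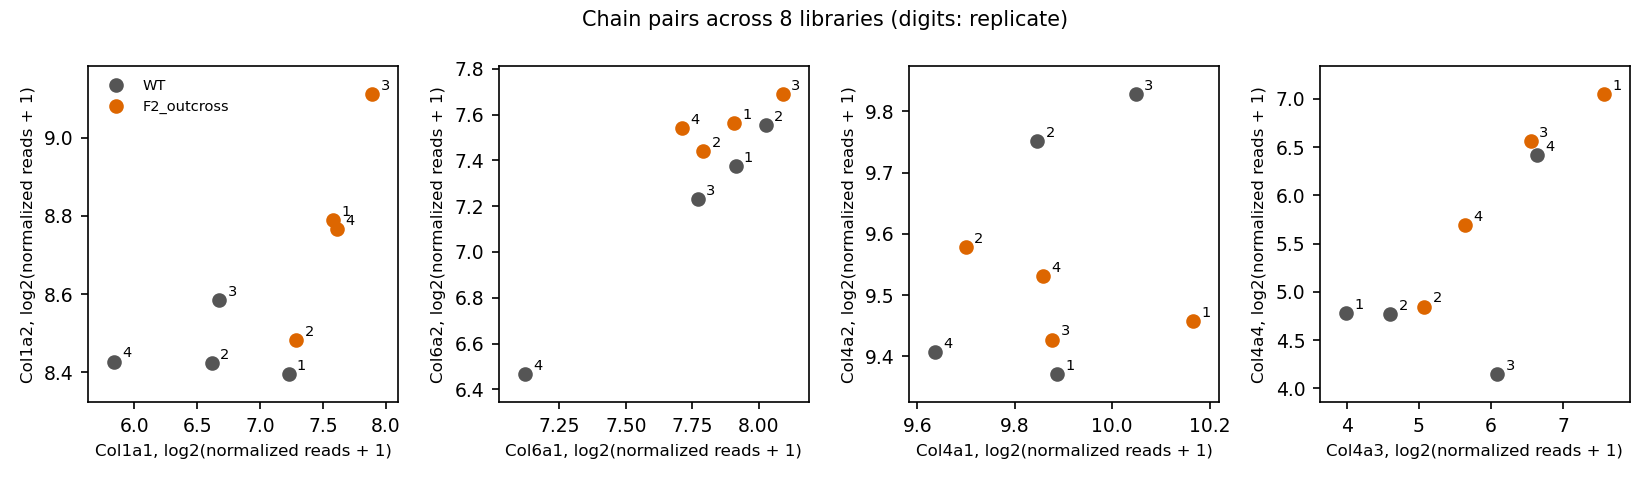
Levels of 4 chain pairs as log2(normalized reads + 1), the first gene on the horizontal and the second on the vertical axis; each point is 1 library, labelled with its replicate number, grey for WT and orange for F2_outcross. WT 4 lies far from the rest for Col6a1 and Col6a2, and Col4a1 and Col4a2 show no clear slope (r = 0.21).

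The ratio of chains per kb gave a further view. Type I trimers normally hold more alpha1 than alpha2 chains. At the RNA level, per kb, Col1a1 stood below Col1a2 in all 8 libraries. The ratio was 0.400, 0.255, 0.238 and 0.148 in WT 1 to 4 and 0.389, 0.393, 0.387 and 0.404 in F2_outcross 1 to 4. The F2_outcross libraries lay in a narrow band, and WT 1 fell within it while the other 3 WT libraries lay below. The mean ratio was 0.260 ± 0.104 in the first group and 0.393 ± 0.00791 in the other (SD, n = 4 a group; by a two-sided exact permutation test p = 0.114, adjusted over 7 ratios 0.160, where the smallest possible p is 0.0286).

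Among the other ratios, Col6a1 over Col6a2 was lower in all F2_outcross libraries (1.42 ± 0.0771 against 1.20 ± 0.0815) and Col1a1 over Col4a1 higher in all (0.120 ± 0.0406 against 0.227 ± 0.0412). Each gave the smallest possible exact permutation p of 0.0286, which became 0.10 after adjustment. Col5a1 over Col5a2 was 2.48 ± 0.703 for WT against 1.64 ± 0.170 for F2_outcross (exact permutation p = 0.0571, adjusted 0.133). Col4a1 over Col4a2 was 1.18 ± 0.152 and 1.30 ± 0.224 (exact permutation p = 0.400, adjusted 0.467), Col1a1 over Col3a1 0.0982 ± 0.0315 and 0.143 ± 0.0124 (exact permutation p = 0.0857, adjusted 0.150) and Col6a1 over Col6a3 2.88 ± 0.459 and 2.75 ± 0.772 (exact permutation p = 0.714, adjusted 0.714).

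The genes that build, process and bind collagen were followed through 6 lists. Of 92 listed genes 77 were tested, 1 rose, 0 fell and 76 were not called, beside 2.66% of all genes. At an unadjusted p under 0.05 there were 9 (11.7%, against 21.1% of all genes), and the median log2 fold change was 0.10. The gene that rose was Serpinh1, which encodes HSP47, the chaperone specific to collagen (chromosome 7, 99345376 to 99353239).

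Serpinh1 had 350.4, 327, 368 and 319.8 normalized reads in WT and 580.3, 504, 623 and 498 in F2_outcross. The groups were far apart relative to their spread, with the highest WT library below the lowest F2_outcross library. It rose 1.61-fold, from 341 ± 21.8 to 552 ± 60.8 (SD, n = 4 a group; log2 fold change 0.69 ± 0.11, 95% interval 1.36- to 1.91-fold, limma adjusted p = 0.0115). It passed in all 17 alternative settings, with an adjusted p between 0.00306 and 0.0428. As the called gene of the collagen pathway, its start window is printed, with capitals for GGGCGG (RefSeq, GRCm38.p6).
Serpinh1 (chr7:99353190-99353489, minus strand): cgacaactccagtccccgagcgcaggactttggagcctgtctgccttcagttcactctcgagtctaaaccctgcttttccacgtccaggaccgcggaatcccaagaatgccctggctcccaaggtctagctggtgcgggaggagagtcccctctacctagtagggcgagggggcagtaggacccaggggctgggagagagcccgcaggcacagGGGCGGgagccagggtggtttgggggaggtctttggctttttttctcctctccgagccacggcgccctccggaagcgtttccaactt
Here 1 GGGCGG was found. The inverted repeat GAANNTTC (its own reverse complement), a core of heat shock elements, is held by 7.86% of all windows and was not in these letters, which says nothing of sites elsewhere.

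In the same list of 20 tested endoplasmic reticulum genes, 13 estimates were positive, 7 were negative and 19 genes were not called (median log2 fold change 0.15). P4ha1 and P4ha2, the catalytic subunits of prolyl 4-hydroxylase, had F2_outcross libraries all above WT (388 ± 31.5 against 490.3 ± 41.5 and 188 ± 22.2 against 246 ± 15.9 normalized reads). Neither passed (log2 fold changes 0.34 ± 0.11 and 0.39 ± 0.13, limma adjusted p = 0.114 for both). Ppib, a prolyl isomerase that helps the helix fold, had all F2_outcross libraries below WT (8619 ± 303 against 7281 ± 619; log2 fold change -0.25 ± 0.10, limma adjusted p = 0.186). With Serpinh1, these were the only genes with groups apart in the pathway lists, 4 of 77 tested (5.19%). Among all genes tested 12.0% had groups apart in either direction, so such separation was not more frequent in these lists.

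Of 16 tested genes for propeptide removal, cross-linking and fibril assembly 0 passed (median 0.10). Pcolce2, an enhancer of C-propeptide cleavage, had 207, 115, 206 and 211 in WT and 129, 89.2, 146 and 124 in F2_outcross, where WT 2 alone of its group lay among the F2_outcross libraries (log2 fold change -0.58 ± 0.22, limma adjusted p = 0.161). Adamts2, the N-propeptidase, was at 120 ± 11.6 and 157 ± 25.3 (0.37 ± 0.15, limma adjusted p = 0.195). Pxdn, which cross-links type IV, and Bgn, a small proteoglycan of fibrils, had adjusted p of 0.464 in the limma fit. Lox, the lysyl oxidase of fibre cross-links, was too low to test, as were Adamts3 and Tll1.

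Of 9 tested genes of collagen breakdown 0 passed (median 0.13). Timp3, a matrix-bound protease inhibitor, was at 563 ± 94.0 and 701 ± 65.8 normalized reads (log2 fold change 0.33 ± 0.13, limma adjusted p = 0.186), followed by the protease genes Mmp19 (0.19 ± 0.10) and Mmp14 (-0.20 ± 0.12) and the inhibitor Timp2 (0.19 ± 0.13). The inhibitor Timp1 and the collagenases Mmp8 and Mmp13 were too low to test. Of 6 tested receptor genes 0 passed (median 0.13). Lair1, an inhibitory collagen receptor of immune cells, had 308, 77.8, 171 and 208 in WT and 106, 88.2, 106 and 102 in F2_outcross (-0.76 ± 0.32, limma adjusted p = 0.198).

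Lair1 was read beside Kupffer cell markers, all 6 of which had negative estimates with none called (14547 to 30838 against 11832 to 16805 normalized reads in sum, median -0.63), and WT 2 was the lowest WT library in both. All 6 markers had an unadjusted limma p under 0.05, where 21.1% of all genes tested did. Their part in the Lair1 level was not tested. The integrin genes Itga10 (0.83 ± 0.43) and Itga1 (-0.16 ± 0.11) and the kinase receptor Ddr2 (0.27 ± 0.17) gave limma adjusted p of 0.288, 0.452 and 0.395.

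Basement membrane partners gave 0 of 13 (median 0.02), with Nid1, the nidogen that links laminin to type IV, at 504 ± 73.6 and 629 ± 78.7 (log2 fold change 0.32 ± 0.13, limma adjusted p = 0.193). The laminin genes Lamb3 (0.45 ± 0.21), Lama2 (0.34 ± 0.25) and Lama1 (-0.35 ± 0.28) followed. Of 13 genes of the TGF-beta signal, a driver of collagen transcription in stellate cells, 0 passed (median -0.01). Their smallest p values belonged to Smad4 (0.18 ± 0.11), Tgfbr1 (0.18 ± 0.12), Smad7 (-0.24 ± 0.23) and Ltbp1 (0.19 ± 0.20), with limma adjusted p from 0.370 to 0.631.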

How the data were processed

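Per the labels, liver RNA was isolated by a lipid tissue kit, and the libraries keep strand. The submitters' processing notes name cutadapt, HISAT2, DESeq2 and build GRCm38, without versions or roles. How reads were counted, on which annotation and with which strand setting is not given in the sources used here. The authors' deposited table is in log2 units, 1 column a library. Its minimum, -3.32, is log2 of 0.1. With 0.1 taken off the unlogged values, 100% were whole multiples of a library's own step (tolerance 0.001 reads), so the values were taken as counts divided by size factors with 0.1 added, and whole reads were recovered. Lines with no symbol, 395 of 25069 (0.611% to 1.22% of reads), were left out. No 2 libraries were copies (chi-square per degree of freedom 35.7 or more).

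The analysis scale was log2(normalized reads + 1), which shrinks differences of low genes. A gene entered if 4 of the 8 libraries or more had 10 normalized reads (14390 genes). The fit was limma 3.58.1 in R 4.3.3 (lmFit; eBayes, trend on the mean; two-sided tests; Benjamini-Hochberg over all genes, threshold 0.05) with group as the only term, and was tested on simulated data. Errors of log2 fold changes are moderated SEs. Chain pairs and ratios used exact permutation tests. Positions and principal transcript lengths came from a GRCm38 annotation, and start windows from RefSeq GRCm38.p6, where 31 of 40 collagen genes had a window.

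The members, gene lists and pairs were chosen with earlier results of these data known. Every tested collagen gene is named, as are, of each pathway list, the genes past the threshold and up to 4 with the smallest p. Of each marker list the sum and counts are given. Alternatives were pseudocounts of 0.5 and 5, no filter, a mean of at least 50 normalized reads, upper quartile scaling, quantile normalization, robust moderation, library weights, limma voom on whole reads and leaving out each library. Counting floors cover counting error only.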

Additional observations from a re-analysis of the deposited data

Results flagged for a closer look

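A library far from the other 3 of its group was found for 3 of 52 groups of 4 values (26 tested collagen genes in 2 groups), where chance gives about 1 in 20. The gap to the nearest library, divided by the range of the group on log2(normalized reads + 1), was compared with Dixon's critical value for 4 samples. Col13a1, the transmembrane chain, was highest in F2_outcross 3 with 245 normalized reads and a gap of 0.933 of the range. Col14a1, the fibril-coating chain, was also highest in F2_outcross 3, with 2106 and a gap of 0.832. Col1a2, the alpha2 chain of type I, was highest in WT 3, with 383 and a gap of 0.830. The latter 2 gaps exceeded the critical value only narrowly.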

How the results depend on the processing

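No collagen gene was called in 14 of 17 alternatives. Quantile normalization called 1, Col1a1 (adjusted p = 0.0415), library weights 2, Col1a1 and Col13a1 (adjusted p = 0.0202 and 0.0444), and leaving out single libraries between 0 and 1, the 1 being Col1a1 without WT 1 (adjusted p = 0.0347). Among all genes, 383 were called; library weights, which gave WT 2 the lowest weight (0.348), called 1709 and left-out libraries between 111 (without F2_outcross 2) and 1073 (without WT 2), with 131 without WT 1, 120 without WT 3, 131 without WT 4 and 142 without F2_outcross 1. The medians stayed within the spread between libraries, 0.25 to 0.59 for fibrillar and 0.08 to 0.34 for other genes. For type IV, left-out libraries gave -0.04 to 0.11, and no filter on low values, which adds Col4a6, gave 0.28. Of 26 collagen genes, 17 never changed sign and 24 were never called. With quantile normalization Col4a5 was at 0.0081, and with library weights Col18a1 was at 0.055 and Col5a1 at 0.044. Leaving out single libraries gave -0.076 to 0.11 for Col18a1, -0.18 to 0.038 for Col5a1, -0.28 to 0.10 for Col4a5, -0.028 to 0.27 for Col6a1, -0.46 to 0.11 for Col17a1, -0.043 to 0.11 for Col4a1, -0.19 to 0.66 for Col8a2, -0.032 to 0.60 for Col15a1 and -0.45 to 0.23 for Col20a1. Upper quartile scaling called 198 higher of 406, where 230 of 383 were higher. In the other lists P4ha2, Pcolce2 and Lair1 passed with library weights, and the latter pair also without WT 2. The causes were not tested. No paired analysis was possible because replicate numbers were given in accession order and pair no animals. Depth limits the genes near 10 reads.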
